A study of Mus musculus with 14 samples.

Results

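The genes described here are 6 genes of the plasminogen activation system and its surroundings, Plau, Plaur, Plat, Serpine2, Serpinb2 and F3, in mouse mammary gland epithelial cells. They were taken by gene symbol from the 23284 genes listed in each of the expression tables, and all 6 were found in both. RNA-seq was performed in 14 libraries. EpH4 is an epithelial line of the mouse mammary gland, and EpRas is a derivative of it transformed with H-Ras. Of the libraries, 8 came from untransfected cells, with 2 for each of 4 groups: EpH4 cells left untreated, EpH4 cells with TGF-β3 (1 ng/ml, 48 h), EpRas cells left untreated and EpRas cells with the same TGF-β3 treatment. The other 6 came from EpRas cells that received siNC, a control siRNA, or pair 1 or pair 2 of siRNAs against Etv4 and Etv5, each without and with TGF-β3, and there was 1 library for each of these conditions. EpH4 cells were cultured in 10% serum and EpRas cells in 4% serum, so the transformation and the serum cannot be told apart in any comparison of the lines. EpRas is 1 derivative line, the study describes the 2 libraries of a group as biological replicates, and p-values measure the spread between the 2 libraries of a group.

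Plasminogen is a circulating zymogen that is cut to plasmin, a broad serine protease that dissolves fibrin and degrades matrix around cells. The cut is made by urokinase, encoded by Plau, which works at the cell surface while bound to the urokinase receptor, encoded by Plaur, or by the tissue-type activator, encoded by Plat, which works mainly on fibrin. Serpins hold the activators in check: Serpine2 encodes protease nexin 1, which inhibits thrombin as well as the activators, and Serpinb2 encodes plasminogen activator inhibitor 2. F3 encodes tissue factor, the membrane receptor that starts coagulation and so the formation of the fibrin that plasmin dissolves. Urokinase and its receptor are known for their induction by Ras and TGF-β signals and for their part in cell invasion, and the 6 genes do not make up the whole system.

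The libraries differed moderately in depth. Expression is given as FPKM, the fragments of a gene scaled to exon length and to the size of the library. Read from the smallest steps between low FPKM values, the depth of the untransfected libraries ranged from 0.609 to 1.36, with the first untreated EpH4 library set to 1, and that of the siRNA libraries from 1 to 1.74, with untreated siNC set to 1. All 7 epithelial markers were detected in each of the 14 libraries, at 18.2 FPKM or more, but 3 of them were lower in EpRas than in EpH4 cells without and 5 with TGF-β by the test used below, Cdh1 (E-cadherin) among them in both. The basal mammary markers Krt14 and Trp63 were also lower in EpRas cells (log2 differences -1.69 and -3.03 without and -3.67 and -2.60 with TGF-β), and the third, Krt5, was near 0 in all libraries. Of the fibroblast markers, Lum was listed at 0 in every library, but the summed level of the 5 markers was 214 and 239 FPKM in EpH4 cells with TGF-β against 4.61 to 25.8 FPKM in the other 3 groups, nearly all of it from the collagen gene Col1a1. Of the 4 leukocyte markers, Ptprc was listed at 0 in all 8 untransfected libraries and Cd3e and Lyz2 at no more than 0.305 FPKM there. Cd68 carried most of the summed level, which was 0.293 to 2.75 FPKM in EpH4 and 3.81 to 7.13 FPKM in EpRas libraries (log2 difference of Cd68 1.01 without and 1.55 with TGF-β, not called, adjusted p = 0.186 and 0.0549 by limma). The part of any of these markers in the results on the lines was not tested. In bulk RNA, fewer cells of a type and less RNA per cell cannot be told apart.

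The members spanned a wide range of levels. Plau (chr14:20836662-20843388, mm10, plus strand) and Plaur (chr7:24462500-24475873, plus strand) were the highest, and F3 (chr3:121723537-121735052, plus strand) lay between 5.38 and 15.2 FPKM in the untransfected libraries. Plat (chr8:22757744-22782848, plus strand), Serpine2 (chr1:79794321-79858665, minus strand) and Serpinb2 (chr1:107511423-107525600, plus strand, with 2 annotated start sites in the table) stayed under 3 FPKM there. FPKM is scaled to gene length, so these levels may be set beside each other. A gene was tested where at least 1 library of the table was at 5 FPKM or more. In the untransfected libraries 3 of the 6 members (Plau, Plaur and F3) reached it, and in the siRNA libraries 5 of 6 did, all but Serpine2. Members that reached it through their high group only were bound to vary, so counts over them describe these genes and support nothing further.

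**Figure D1:**
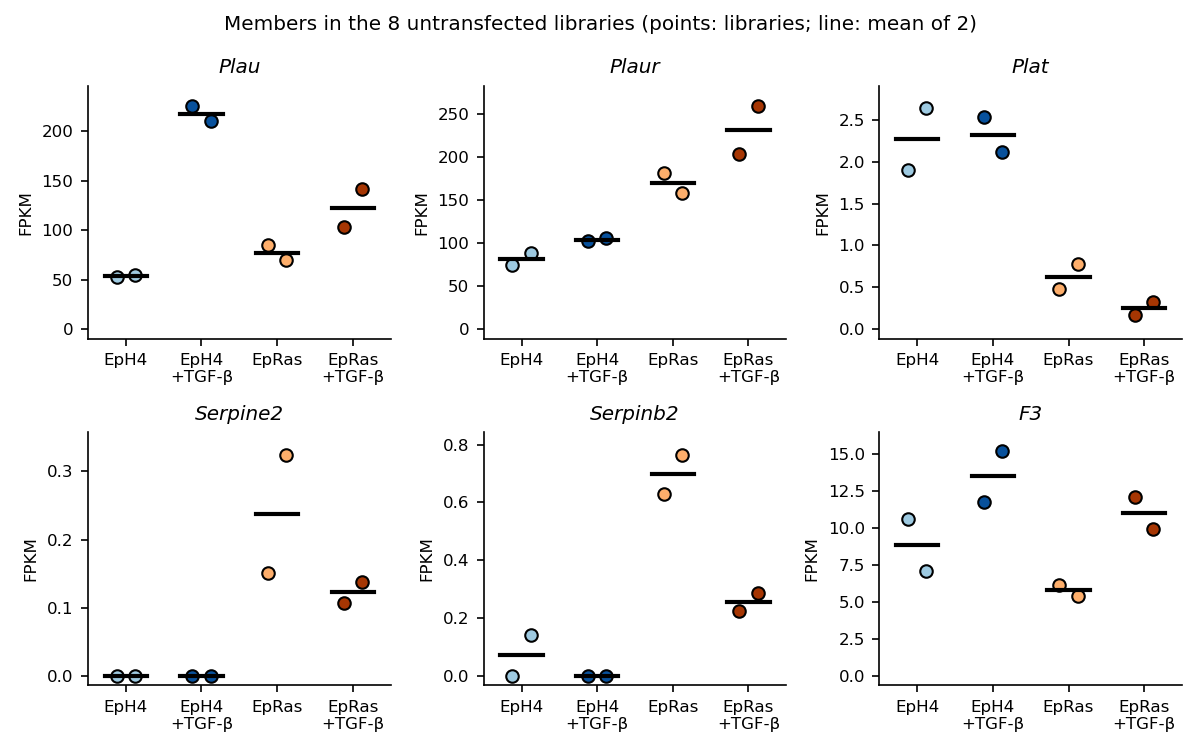
FPKM of each member (vertical axis, a separate linear scale for each gene) in the 8 untransfected libraries, with 1 point for each library and a line at the mean of 2. Plau was highest in EpH4 cells with TGF-β (225 and 210 FPKM), Plaur in EpRas cells with TGF-β (204 and 260 FPKM), and Serpine2 was listed at 0 in all 4 EpH4 libraries.

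Plau, the urokinase gene, showed the largest response to TGF-β among the members tested, and the response was seen in EpH4 cells. Its level was 52.3 and 54.6 FPKM in untreated EpH4 cells and 225 and 210 FPKM in EpH4 cells with TGF-β. It was 84.7 and 70.0 FPKM in untreated EpRas cells and, after TGF-β, 103 and 141 FPKM. The 4 groups did not overlap, and their order was EpH4, EpRas, EpRas with TGF-β and EpH4 with TGF-β. The mean of EpH4 cells rose from 53.5 ± 1.6 to 217 ± 10.7 FPKM (SD, n = 2 each), a 4.06-fold increase. By limma on log2(FPKM + 1), with Benjamini-Hochberg adjustment over 9100 genes, the difference was 2.00 ± 0.19 (SE, adjusted p = 0.000957), and 1.64% of the genes had a larger one in either direction. It was the 1 member called higher among the 3 tested, where 9.4% of all genes were called and 6.48% were called higher.

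In EpRas cells TGF-β moved Plau from 77.4 ± 10.4 to 122 ± 26.9 FPKM (SD, n = 2 each), which did not pass the test (log2 difference 0.64 ± 0.19, adjusted p = 0.157 by limma). No member was called for TGF-β in EpRas cells, where 3.82% of all genes were, and all 3 members tested had an unadjusted p under 0.05 in this fit (0.0127 for Plau, 0.0441 for Plaur and 0.00745 for F3), as had 1442 of the 9100 genes. The TGF-β effect on Plau was smaller in EpRas than in EpH4 cells by 1.37 on the log2 scale (difference between the effects -1.37 ± 0.27, adjusted p = 0.0958), which missed the threshold. For this difference between the effects 0.802% of all genes were called and none of the members, of which only Plau had an unadjusted p under 0.05 (0.00141), as had 990 of the 9100 genes. It passed only in the fit without the second EpRas library with TGF-β (adjusted p = 0.0407), while the highest adjusted p over all settings was 0.456.

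The order of the lines was opposite without and with TGF-β. Without it Plau was 1.45-fold higher in EpRas cells, a log2 difference of 0.52 ± 0.19 that was not called (adjusted p = 0.111). With it Plau was 1.78-fold higher in EpH4 cells (EpRas against EpH4 -0.85 ± 0.19, adjusted p = 0.0203 by limma). That call was lost in 4 of 18 settings, with adjusted p up to 0.137 when the first EpH4 library with TGF-β was left out, and the difference lay between -1.07 and -0.62 over the settings. The high Plau libraries, those of EpH4 cells with TGF-β, were the same as those with the high Col1a1 level given above. The summed level of the 3 basal markers was also highest there, at 789 and 855 FPKM against 334 and 395 FPKM in untreated EpH4 cells (TGF-β effect on Krt14 1.20 ± 0.16, adjusted p = 0.00409 by limma), and Cdh1 was higher with TGF-β (0.79 ± 0.15, adjusted p = 0.021). In EpRas cells Krt14 was lower with TGF-β (-0.78 ± 0.16, adjusted p = 0.042). The part of these markers in the results on Plau was not tested.

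Plaur, the urokinase receptor gene, was higher in EpRas than in EpH4 cells in both conditions. It was expressed at 74.4 and 88.6 FPKM in untreated EpH4 cells and at 102 and 106 FPKM in EpH4 cells with TGF-β. In EpRas cells it was 182 and 158 FPKM without and 204 and 260 FPKM with TGF-β, so that every EpRas library was above every EpH4 library. The mean was 2.08-fold higher in EpRas cells without TGF-β, with a log2 difference of 1.05 ± 0.18 (adjusted p = 0.0084 by limma). It was 2.24-fold higher with TGF-β, with a log2 difference of 1.14 ± 0.18 (adjusted p = 0.00459). These comparisons share no library, but the spread was estimated from all 8 libraries for both. With only the groups compared, the adjusted p was 0.0307 without and 0.0245 with TGF-β by limma. By a Tukey-Kramer test on FPKM the comparison without TGF-β did not pass (adjusted p = 0.0547) and that with TGF-β did (adjusted p = 0.0153). The first of them passed in 16 of 18 limma settings and was lost without the first untreated EpH4 library (adjusted p = 0.0545) or without the first untreated EpRas library (adjusted p = 0.0618), and the second passed in all 18.

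Without TGF-β, Plaur was the 1 member called among 3, and 17.6% of all genes were called (8.45% were higher in EpRas cells, 9.11% lower). With TGF-β, Plaur and Plau were called, in opposite directions, where 21.3% of all genes were (8.92% were higher in EpRas cells, 12.3% lower). The median log2 difference of the 3 members was 0.52 without and -0.27 with TGF-β, beside -0.00 and -0.01 for all genes tested. With TGF-β the Plaur libraries were higher than those without in both lines, with no overlap. The increase of 1.27-fold in EpH4 and 1.37-fold in EpRas cells did not pass the test (log2 differences 0.35 ± 0.18 and 0.44 ± 0.18, adjusted p = 0.301 and 0.297). The receptor and its protease thus had different patterns: over the 8 libraries the Pearson correlation of log2(FPKM + 1) between Plau and Plaur was 0.202, given as a description of 8 libraries that share 4 groups.

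**Figure D2:**
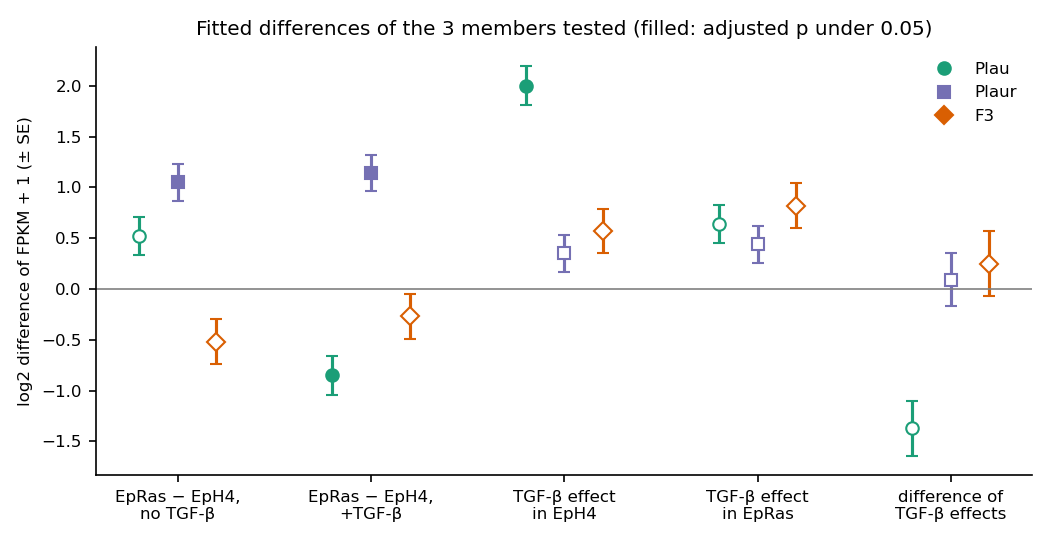
Fitted log2 differences of FPKM + 1 with their SE (vertical axis) for Plau, Plaur and F3 in the 4 comparisons of groups and for the difference between the TGF-β effects of the lines (horizontal axis). Filled symbols passed an adjusted p of 0.05 by limma: Plaur in both comparisons of the lines (1.05 and 1.14), and Plau for TGF-β in EpH4 cells (2.00) and between the lines with TGF-β (-0.85).

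Plat, the gene of the tissue-type activator, was low in both lines and, among the untransfected libraries, lower in EpRas cells. It was listed at 1.90 and 2.64 FPKM in untreated EpH4 cells, 2.53 and 2.11 FPKM with TGF-β, 0.480 and 0.774 FPKM in untreated EpRas cells, and 0.170 and 0.329 FPKM in treated EpRas cells. All 4 EpRas libraries lay below all 4 EpH4 libraries. From the steps of its FPKM, the EpH4 libraries held 26, 49, 25 and 31 reads of Plat and the EpRas libraries 4, 12, 2 and 3. Over both conditions, 21 reads in EpRas against 131 in EpH4 cells gave a ratio corrected for depth of 0.204 (exact 95% binomial interval 0.122 to 0.325, counting error only). Plat did not reach 5 FPKM and so was not in the fit above. In the fit without that filter, its log2(FPKM + 1) difference between the lines was -1.0 ± 0.16 without TGF-β (adjusted p = 0.0137 by limma) and -1.41 ± 0.16 with TGF-β (adjusted p = 0.00351), and the TGF-β effects of 0.03 in EpH4 and -0.38 in EpRas cells were not called (adjusted p = 0.996 and 0.37).

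The activators thus stood at different levels in the same cells, with Plau between 52.3 and 225 FPKM and Plat between 0.170 and 2.64 FPKM in the untransfected libraries.

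Both inhibitor genes among the members were close to the detection limit in untransfected cells. They are not all inhibitors of the activators, and the level of inhibitors as a whole was not analysed here. Serpinb2 (plasminogen activator inhibitor 2) was listed at 0 and 0.142 FPKM in untreated EpH4 cells and at 0 in both EpH4 libraries with TGF-β. In EpRas cells it was 0.631 and 0.764 FPKM without and 0.224 and 0.288 FPKM with TGF-β, so the listed values of the lines did not overlap. They rest on 0, 2, 0 and 0 reads in EpH4 and 4, 9, 2 and 2 reads in EpRas libraries. A count of 0 allows up to 3 reads, which correspond to 0.268 to 0.399 FPKM in the 3 EpH4 libraries at 0, so the EpRas values with TGF-β were not shown to be above them. The depth-corrected ratio of 17 to 2 reads over both conditions was 10.8, with an exact 95% interval of 2.57 to 96.5 for counting error only. With TGF-β alone, 4 reads against 0, the interval began at 0.776. In the fit without a filter, Serpinb2 was higher in EpRas cells without TGF-β (log2 difference 0.67 ± 0.10, adjusted p = 0.0115 by limma) and was not called with TGF-β (0.33 ± 0.10, adjusted p = 0.0843).

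Serpine2 (protease nexin 1) was listed at 0 in all 4 EpH4 libraries, at 0.151 and 0.324 FPKM in untreated EpRas cells and at 0.107 and 0.138 FPKM in treated ones. The EpRas values stood for 1, 4, 1 and 1 reads. A count of 0 allows up to 3 reads, which correspond to 0.203 to 0.382 FPKM in the EpH4 libraries. Of the EpRas values, 3 were below this range and that of 0.324 FPKM was within it. Over both conditions there were 7 reads in EpRas against 0 in EpH4 cells, and the exact 95% interval of the depth-corrected ratio began at 1.83 (1.24 without and 0.221 with TGF-β alone, counting error only). No fold is given, and in limma without a filter the lines were not called different (adjusted p = 0.0991 without and 0.316 with TGF-β).

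F3, the tissue factor gene, was expressed at 10.6 and 7.12 FPKM in untreated EpH4 cells and at 11.8 and 15.2 FPKM with TGF-β. In EpRas cells it was 6.17 and 5.38 FPKM without and 12.1 and 9.91 FPKM with TGF-β. The libraries with TGF-β were above those without in each line. In the order of the group means, untreated EpRas cells (5.78 ± 0.56 FPKM, SD, n = 2) were apart from the next group, untreated EpH4 cells (8.85 ± 2.44 FPKM), and the neighbours above overlapped. None of the 4 comparisons passed: the log2 differences were -0.52 ± 0.22 and -0.27 ± 0.22 between the lines (adjusted p = 0.157 and 0.421) and 0.57 ± 0.22 and 0.82 ± 0.22 for TGF-β in EpH4 and EpRas cells (adjusted p = 0.172 and 0.116). The 1.9-fold higher mean of F3 in EpRas cells with TGF-β rested on 102 and 65 reads against 37 and 60 reads, a depth-corrected ratio of 1.96 with a counting interval of 1.52 to 2.55 that leaves out the spread between libraries.

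The start regions of the members differed in letters that transcription factors are known to read. AP-1, which Ras signals activate, reads TGACTCA or TGAGTCA, and was searched in the looser form TGANTCA, with any base at N. ETS factors such as Etv4 and Etv5 read GGAAGT, and Smad proteins, which carry the TGF-β signal, read the palindrome GTCTAGAC. The 250 bases before the start were searched on both strands in RefSeq windows of GRCm38.p6, which matched 4 of the 6 members by symbol, Plaur, F3, Serpinb2 and Serpine2. The windows of Plaur (chr7:24462233-24462482, plus strand), F3 (chr3:121723287-121723536, plus strand) and Serpinb2 (chr1:107511173-107511422, plus strand) are shown because each holds a match. Of these 3 members, Plaur and Serpinb2 were called for the knockdown in the siRNA libraries described next, and F3 was not. A link between these matches and the calls was not tested. Capitals mark each match to TGANTCA.
Plaur: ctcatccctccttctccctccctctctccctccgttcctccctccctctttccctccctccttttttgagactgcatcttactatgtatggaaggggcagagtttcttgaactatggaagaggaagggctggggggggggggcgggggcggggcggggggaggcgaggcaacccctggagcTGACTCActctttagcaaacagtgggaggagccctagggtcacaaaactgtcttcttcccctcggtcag
F3: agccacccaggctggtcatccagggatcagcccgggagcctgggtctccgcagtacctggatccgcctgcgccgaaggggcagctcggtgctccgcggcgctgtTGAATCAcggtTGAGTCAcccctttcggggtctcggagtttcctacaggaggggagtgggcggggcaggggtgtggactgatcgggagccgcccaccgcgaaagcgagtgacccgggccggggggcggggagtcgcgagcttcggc
Serpinb2: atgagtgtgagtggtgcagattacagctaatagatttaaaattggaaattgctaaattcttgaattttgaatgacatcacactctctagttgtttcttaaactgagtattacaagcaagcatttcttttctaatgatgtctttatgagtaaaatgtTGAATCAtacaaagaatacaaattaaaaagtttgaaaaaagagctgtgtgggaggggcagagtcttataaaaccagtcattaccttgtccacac

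Distances are counted from the RefSeq start that follows each window, which for Plaur lies upstream of the start given above from the expression table. Plaur held TGACTCA at 69 bases before that start, F3 held TGAATCA at 146 and TGAGTCA at 135 bases, and Serpinb2 held TGAATCA at 94 bases. Serpine2 held none. Of all 32817 windows of this length, 6.75% held TGANTCA, 19.7% held GGAAGT and 0.168% held GTCTAGAC. Neither GGAAGT nor GTCTAGAC was present in the windows of the 4 members. A match is a description of the letters and was not tied to binding here, and the absence of a match speaks only of these letters in this window.

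The siRNA libraries addressed what loss of Etv4 and Etv5 does in EpRas cells. The targets were lower in every library with the siRNA pairs: Etv4 was 57.4 FPKM with siNC against 11.6 and 27.9 FPKM with pairs 1 and 2 without TGF-β, and 64.3 against 12.6 and 18.9 FPKM with TGF-β. Etv5 was 8.85 against 1.61 and 1.26 FPKM without and 5.34 against 1.24 and 1.20 FPKM with TGF-β. With 1 library for each condition there is no replicate check of a single comparison. A model with a knockdown and a TGF-β term over the 6 libraries was also fitted, in which the spread comes from libraries that differ in siRNA or treatment.

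Serpinb2 fell the most among the members tested in these libraries. It was 11.9 FPKM with siNC against 2.94 and 2.26 FPKM with pairs 1 and 2 without TGF-β. With TGF-β it was 6.48 FPKM against 0.606 and 0.553 FPKM. Both pairs were below siNC in both conditions, at 24.6% and 18.9% of siNC without and 9.35% and 8.53% with TGF-β. The values correspond to about 157, 53 and 38 reads without and 149, 11 and 9 reads with TGF-β. The intervals that Cuffdiff gives were apart with TGF-β (2.02 to 11 FPKM for siNC, with upper ends of 1.47 and 1.35 FPKM for the pairs) and overlapped for pair 1 without it.

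Of the 5 members that reached the filter, Serpinb2 was the only one past 2-fold with both pairs on log2(FPKM + 1), in each condition, where 2.49% of all genes were lower by this rule without and 2.49% with TGF-β. In the model its knockdown term was -2.05 ± 0.17 on the log2 scale (adjusted p = 0.0203 by limma over 9094 genes), and 0.891% of the genes had a larger one. Serpinb2 reached the filter only through the siNC libraries, where it is high, so that this value is no independent support. In the fit without a filter the adjusted p was 0.0442. The adjusted p lay between 0.0187 and 0.174 over 7 settings and missed the threshold in 1 of them, with pair 2 alone. Serpinb2 was also lower with TGF-β (-1.05 ± 0.16, adjusted p = 0.0326), in each of the 3 siRNA conditions, but this passed in only 2 of 7 settings (adjusted p up to 0.231).

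Plaur fell with both pairs as well, to about the same share in both conditions. It was 187 FPKM with siNC against 107 and 92.7 FPKM without TGF-β and 291 against 158 and 132 FPKM with TGF-β. The pairs thus left 57% and 49.6% of the siNC level without and 54.5% and 45.6% with TGF-β. Its knockdown term was -0.95 ± 0.16 (adjusted p = 0.0448 by limma), which was lost in 4 of 8 settings (adjusted p from 0.0321 to 0.183). Together with Serpinb2 it made 2 of 5 members called lower, where 2.12% of all genes were called and 1.35% were called lower, and no member was called higher. Serpinb2 and Plat reached the filter only through siNC libraries, so this count describes these genes and supports nothing further. In the fit without a filter Plaur was not called (adjusted p = 0.0612 by limma). The basal marker Krt14 moved with the pairs as well, from 109 FPKM with siNC to 237 and 365 FPKM without TGF-β and from 140 to 214 and 244 FPKM with it (knockdown term 1.06 ± 0.26, adjusted p = 0.09 by limma). The summed level of the leukocyte markers was lower with the pairs, at 6.14 FPKM with siNC against 2.83 and 3.94 FPKM without TGF-β and 6.52 against 2.63 and 3.37 FPKM with it, mostly from Cd68 (knockdown term -0.76 ± 0.22, adjusted p = 0.125). The summed level of the 3 endothelial markers, none of which reached the filter, was lower with the pairs too. It was 0.585 FPKM with siNC against 0.0262 and 0.0347 FPKM without TGF-β. With TGF-β it was 2 FPKM against 0.0774 and 0.229 FPKM. The part of these markers in the results on the knockdown was not tested.

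Plau and Plat were below siNC with both pairs in both conditions, but their knockdown terms did not pass. Plau was 171 FPKM with siNC against 90.1 and 84.5 FPKM without TGF-β and 231 against 155 and 189 FPKM with TGF-β (knockdown term -0.70 ± 0.19, adjusted p = 0.109 by limma). Plat was 3.99 FPKM against 2.81 and 2.27 FPKM without and 5.84 against 3.23 and 4.02 FPKM with TGF-β (-0.54 ± 0.16, adjusted p = 0.127). The Plat values stood for 69, 66 and 50 reads without and 176, 77 and 86 reads with TGF-β. Plat reached the filter only through siNC with TGF-β, where it is highest, so its values describe this gene and support nothing further.

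F3 and Serpine2 went the other way with pair 1 and differed between the pairs. Without TGF-β, F3 stood at 8.20 FPKM for siNC against 13.7 FPKM for pair 1 and 6.0 FPKM for pair 2. With TGF-β the values were 8.13, 42.7 and 13.5 FPKM. The value of pair 1 with TGF-β stood for 733 reads, and its Cuffdiff interval of 22.2 to 63.3 FPKM lay above that of siNC (2.63 to 13.6 FPKM) and of pair 2 (5.67 to 21.4 FPKM). The knockdown term of F3 was 0.80 ± 0.56 (adjusted p = 0.431 by limma). Serpine2 was 0.218 FPKM with siNC against 3.74 and 0.285 FPKM without TGF-β and 0.0417 against 0.527 and 0.117 FPKM with TGF-β, which stood for 3, 70, 5, 1, 10 and 2 reads in this order. Of the 70 reads with pair 1 against 3 with siNC, the depth-corrected ratio was 17.2 (exact 95% interval 5.63 to 85.2, counting error only). Pair 2 gave a ratio of 1.31 (0.255 to 8.45). For F3 pair 2 was below siNC without TGF-β (depth-corrected ratio 0.733, 0.549 to 0.979) and above it with TGF-β (1.66, 1.35 to 2.04), so F3 was above siNC in both conditions with pair 1 and in 1 of them with pair 2. Col1a1 also stood higher with pair 1 (14.3 and 27.7 FPKM) than with pair 2 (2.07 and 5.40 FPKM) or siNC (0.629 and 2.44 FPKM). The part of this in the result was not tested.

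**Figure D3:**
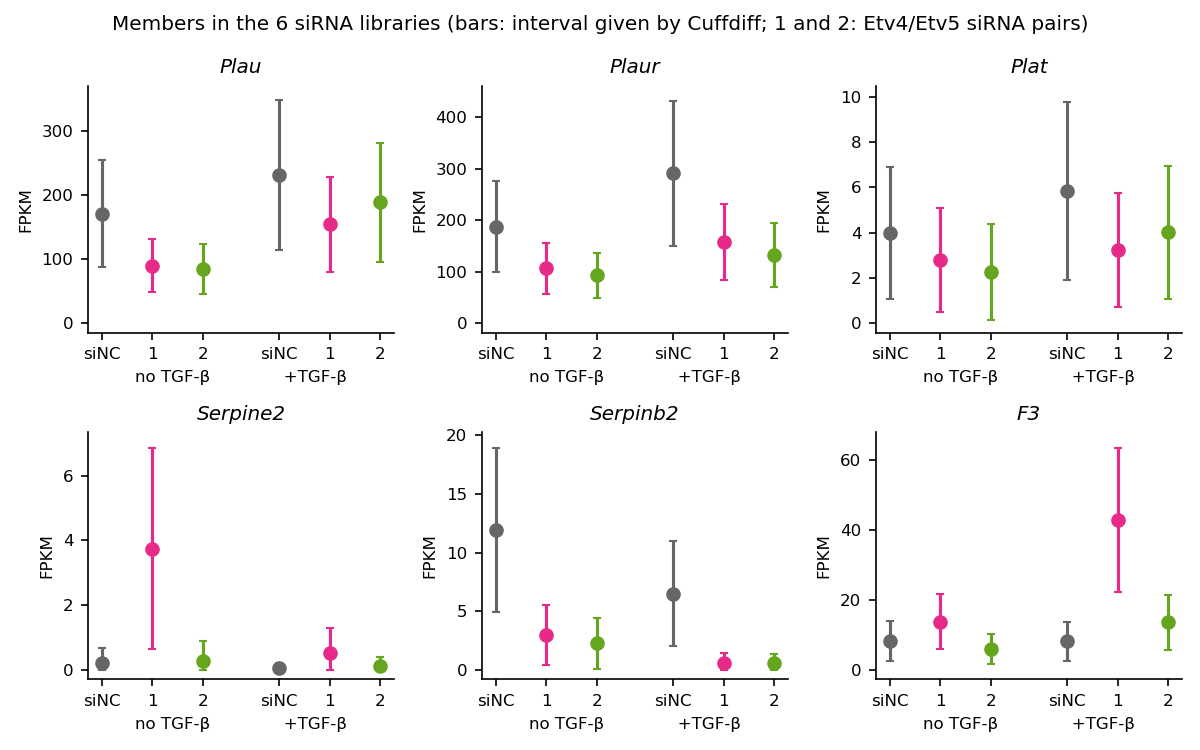
FPKM of each member (vertical axis, a separate linear scale for each gene) in the 6 EpRas libraries with siNC or siRNA pair 1 or 2 against Etv4 and Etv5, without and with TGF-β. Bars are the intervals Cuffdiff gave, not a spread between replicates. Serpinb2 was below siNC with both pairs in each condition, and F3 stood at 42.7 FPKM with pair 1 and TGF-β against 8.13 FPKM with siNC.

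In the siRNA model no member was called higher with TGF-β. Of the 5 members tested, 1 was called (Serpinb2, lower), where 2.5% of all genes were (1.61% higher and 0.891% lower). Plau was higher with TGF-β in all 3 siRNA conditions (1.35-fold with siNC, 1.72-fold with pair 1 and 2.23-fold with pair 2), but the term of 0.78 ± 0.18 did not pass (adjusted p = 0.0899 by limma). Plaur was higher in all 3 as well, by 1.55-, 1.48- and 1.43-fold (0.57 ± 0.15, adjusted p = 0.13). So was Plat, by 1.47-, 1.15- and 1.77-fold (0.41 ± 0.15, adjusted p = 0.238 by limma). In untransfected EpRas cells Plat went the other way with TGF-β, on 5 reads against 16 (depth-corrected ratio 0.356, counting interval 0.102 to 1.02).

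Levels of EpRas cells in both tables can be set side by side only as values, since the untransfected and the transfected samples were processed independently and normalized separately. Plat was 0.480 and 0.774 FPKM in untreated untransfected EpRas cells and 3.99 FPKM with siNC. Serpinb2 was 0.631 and 0.764 FPKM against 11.9 FPKM, and Plau was 84.7 and 70.0 FPKM against 171 FPKM. Plaur (182 and 158 FPKM against 187 FPKM) and F3 (6.17 and 5.38 FPKM against 8.20 FPKM) stood closer. The Plat value with siNC was also above those of untreated EpH4 cells (1.90 and 2.64 FPKM). The lower Plat level of EpRas cells was thus seen among the untransfected libraries only. Transfection, culture and sequencing run cannot be told apart here, and the difference was not tested.

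Around the members, 43 further genes of the system were listed by role, of which 41 were in the tables by symbol and 12 were tested. In EpRas cells 3 were called higher and 3 lower without TGF-β, and 2 higher and 5 lower with TGF-β. Of all genes, 8.45% were called higher and 9.11% lower without TGF-β, and 8.92% and 12.3% with it. The median log2 difference of the 12 was -0.05 and -0.19. Of the genes called, F2r and Serpinb9 reached the filter only through the line in which they are high, so these counts describe the list and support nothing further. Plg, the gene of the substrate plasminogen, was listed at 0 in all libraries but 1 and at 0.0426 FPKM in that one. The fibrinogen chain genes Fga, Fgb and Fgg, the coagulation factor genes F7 and F10, and Vtn (vitronectin) were listed at 0 in all 14 libraries. Of the 6 further inhibitor genes listed here (Serpini1, Serpinf2, Serpina5, Serping1, A2m and Cpb2), none reached 5 FPKM, and this list too does not hold every inhibitor of the activators.

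On the side of tissue factor, 2 of 9 genes were tested, Procr and F2r. Procr, which encodes the endothelial protein C receptor, was 21.8 and 30.6 FPKM in untreated EpH4 cells and 80.5 and 81.9 FPKM in untreated EpRas cells (log2 difference 1.61 ± 0.22, adjusted p = 0.00318 by limma). With TGF-β it was 31.0 and 27.0 FPKM in EpH4 and 166 and 122 FPKM in EpRas cells (2.26 ± 0.22, adjusted p = 0.000464). F2r, the gene of a thrombin receptor, was 3.30 and 1.50 FPKM in untreated EpH4 and 7.95 and 9.52 FPKM in untreated EpRas cells (1.56 ± 0.30, adjusted p = 0.0131), and its difference with TGF-β was 1.14 ± 0.30 (adjusted p = 0.0352), a call that was lost in the fit without a filter (adjusted p = 0.0592). F2r reached the filter only through the EpRas libraries, where it is high, so its calls support nothing further. Procr was also past 2-fold lower with both siRNA pairs in both conditions, from 114 FPKM with siNC to 28.3 and 27.1 FPKM without and from 155 to 64.5 and 36.4 FPKM with TGF-β (knockdown term -1.83 ± 0.25, adjusted p = 0.0328 by limma). This call was lost in the fit without a filter (adjusted p = 0.067). The endothelial markers given above were lower with the pairs as well, and their part in this result was not tested.

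Of the plasminogen receptors, Anxa2 and S100a10, whose products form the annexin A2 complex that binds plasminogen, were highly expressed, at 916 to 1524 FPKM and 1039 to 2962 FPKM over the 14 libraries, and were not called between the groups. Eno1, tested in the same list, was higher in EpRas cells without and with TGF-β but was not called either. Its log2 differences were 1.20 ± 0.52 and 1.36 ± 0.52 (adjusted p = 0.157 and 0.105 by limma). Lrp1, which encodes an endocytic receptor that clears activator and inhibitor complexes, was 20.5 and 28.1 FPKM in untreated EpH4 and 70.1 and 60.0 FPKM in untreated EpRas cells (1.40 ± 0.21, adjusted p = 0.00484 by limma). TGF-β raised it in EpH4 cells to 59.5 and 53.3 FPKM (1.20 ± 0.21, adjusted p = 0.0139), and with TGF-β the lines were not called different.

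Membrane-bound relatives of the system were lower in EpRas cells. St14, the gene of matriptase, was 141 and 158 FPKM in untreated EpH4 and 62.5 and 54.3 FPKM in untreated EpRas cells (-1.34 ± 0.20, adjusted p = 0.00468 by limma), and its difference with TGF-β was -2.42 ± 0.20 (adjusted p = 0.000226). The Kunitz inhibitor genes Spint2 (-0.79 ± 0.20 without and -1.19 ± 0.20 with TGF-β, adjusted p = 0.0327 and 0.00533) and Spint1 (-1.69 ± 0.19 with TGF-β, adjusted p = 0.000855) went the same way. In all, 2 of 3 genes tested in this list fell without and 3 of 3 with TGF-β, and epithelial markers moved with them, 3 of 7 being called lower without and 5 of 7 with TGF-β, where 9.11% and 12.3% of all genes were. The part of that in the result was not tested. Among the other clade B serpins, relatives of Serpinb2, Serpinb9 was lower in EpRas cells (-1.67 ± 0.26 without and -1.78 ± 0.26 with TGF-β, adjusted p = 0.00536 and 0.00309), and Serpinb5, the maspin gene, with TGF-β (-1.45 ± 0.28, adjusted p = 0.00942). Serpinb9 reached the filter only through the EpH4 libraries, where it is high, and in the fit without a filter its adjusted p was 0.0117 without and 0.00744 with TGF-β. Serpinb8 was 13.6 FPKM with siNC against 3.27 and 3.49 FPKM with the siRNA pairs without TGF-β, and 13.0 against 1.87 and 4.11 FPKM with it. It reached the filter only through the siNC libraries, so these values are given as a description.

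**Figure D4:**
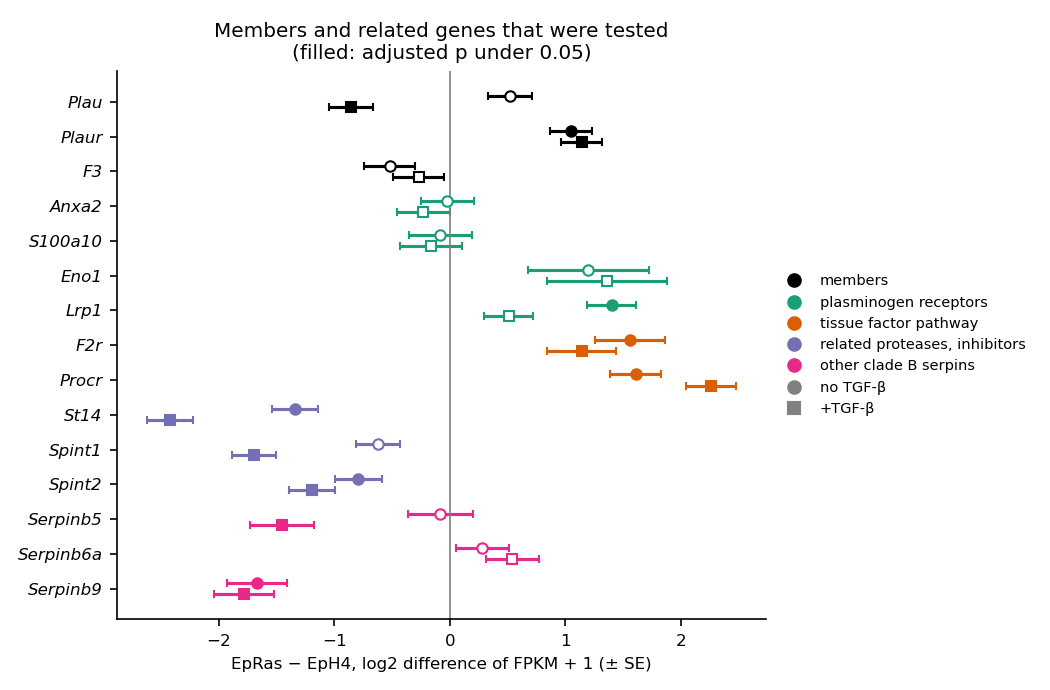
Log2 difference of FPKM + 1 between EpRas and EpH4 cells with its SE (horizontal axis) for the 3 members and the 12 related genes tested, without (circles) and with (squares) TGF-β. Filled symbols passed an adjusted p of 0.05 by limma. In both conditions Plaur, Procr and F2r passed above 0, and St14, Spint2 and Serpinb9 passed below 0. Plau passed only with TGF-β, where it stood below 0, and its difference of 0.52 without TGF-β did not pass.

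The genes most alike in pattern were ranked by the Pearson correlation of log2(FPKM + 1) over the 8 untransfected libraries, which share 4 groups, so high values are common. For Plau these were Bmp1 (r = 0.992), Hr (0.991) and Myo1e (0.988). For Plaur they were Chkb (0.991), Rtn2 (0.987) and Marcksl1 (0.987), and for F3 they were 2810408M09Rik (0.961), Ell2 (0.949) and Ss18 (0.947). No member was among the genes most alike to another. The correlation of F3 was 0.647 with Plau and -0.186 with Plaur.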

How the data were processed

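mRNA was sequenced directionally by the authors on the Ion Proton. The alignment to mm10 used TopHat2 2.0.11 and the quantification Cuffdiff (the submitters' notes also name Bowtie2 and Cufflinks 2.2.0). The 2 tables deposited by the authors hold FPKM for each gene and library with the interval Cuffdiff gives, 1 table for untransfected and 1 for siRNA libraries, and were tested separately. FPKM is relative to the library total, so a rise of a few abundant genes lowers the others. Genes without an OK status (3 and 2) were left out. No per-sample column was left unused (0). Here, genes with a maximum of at least 5 FPKM (9100 and 9094) were compared in limma 3.58.1 (R 4.3.3) after transformation to log2(FPKM + 1). Each group had its own mean, all groups shared the spread, and p-values were adjusted by Benjamini-Hochberg over all genes tested. Differences on this scale understate changes of genes at low FPKM. Both the fit and the reading of steps were tested on simulated tables.

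Depth is not given in the tables. Relative depth was read from the most frequent ratio of low FPKM values between libraries. A gene's reads were accepted where 1 step made the values of all libraries whole within 0.02 reads, with at least 3 libraries under 200 reads. This succeeded for Plat, Serpine2 and F3 in both tables and for Serpinb2 in the untransfected one. The Serpinb2 reads of the siRNA libraries were estimated from the ratio of steps between the tables (0.791), and for Plau and Plaur no step was found. Ratios of reads have exact binomial intervals (Clopper-Pearson, 95%), which cover counting error only.

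Replicate numbers did not pair the libraries (correlation of deviations between groups from -0.35 to 0.08). Alternatives were pseudocounts of 0.1 and 5 FPKM, no filter, a mean of at least 10 FPKM, only the groups compared, a replicate block, limma's trend, other scalings, leaving out each library, single siRNA pairs and a Tukey-Kramer test.

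The members, the lists of related genes, the motifs and the tests were chosen with earlier results of these data known. All 6 members were named. Of the related genes, those past an adjusted p of 0.05 in a comparison of groups (up to 4 per list) were named. Others were named without passing, among them Anxa2, S100a10, Eno1 and the 6 further inhibitor genes. Of the genes listed at 0 in all libraries, some were named and others were not. Serpinb8 and the marker genes (Col1a1, Krt14, Trp63, Cd68 and others) were named after their values were seen. The planned search of protein sequences was not run. Other steps ran in Python 3.11.15 (scipy 1.17.1, pandas 2.3.3, numpy 2.4.6).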

Additional observations from a re-analysis of the deposited data

Results flagged for a closer look

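The TGF-β effect on F3 was near 0 with siNC and above 0 with both siRNA pairs. As a log2 difference of FPKM + 1 it was -0.01 with siNC, 1.58 with pair 1 and 1.05 with pair 2. In untransfected EpRas cells, which received no siRNA, it was 0.82 ± 0.22 (adjusted p = 0.116 by limma). There was 1 library for each siRNA condition, and the difference was not tested.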

How the results depend on the processing

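Over the alternatives, 344 of 375 values of single members were counted as unchanged. For the limma values this meant the same direction and the same side of the threshold. The Tukey-Kramer entries carry the limma difference, so only their side of the threshold could change. The comparisons of the siRNA pairs with siNC within a condition have no p-value. For them no side of a threshold was checked, and the count rests on how far the value shifted. The calls of Plau for TGF-β in EpH4 cells and of Plaur between the lines with TGF-β were kept in every alternative. Where values changed, the cause was not tested. With the replicate numbers as a block, 547 genes were called for TGF-β in EpH4 cells (855 without) and 222 in EpRas cells (348 without). For the difference between these effects 31 genes were called (73 without), and no call of a member changed. The block covers only a pairing by equal numbers. A mean of at least 10 FPKM tests fewer genes and leaves out F3 in the untransfected libraries and Plat and Serpinb2 in the siRNA libraries. With it, 880 genes were called between the lines without and 1092 with TGF-β (1598 and 1935 with the filter used). For TGF-β in EpH4 and EpRas cells 559 and 225 genes were called, and 24 for the difference. In the siRNA model 109 genes were called for the knockdown, with 1 member called for the knockdown and 0 for TGF-β. Serpinb2 was not tested there, so its calls in that model were not checked by this filter. Without a filter 117 genes were called for the difference, 42 for the knockdown and 72 for TGF-β in the siRNA model, with 1 and 0 members called in that model. With limma's trend 45 genes were called for the difference. With only the groups compared, 45 genes were called for TGF-β in EpRas cells, and Plau lost its call between the lines with TGF-β (adjusted p = 0.0648), which left 1 member. By the Tukey-Kramer test 0 members were called between the lines without TGF-β, with Plaur just missing the threshold.

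Leaving out 1 library at a time gave 736 to 2104 genes between the lines without and 816 to 2370 with TGF-β, 242 to 1153 and 135 to 407 for TGF-β in EpH4 and EpRas cells, and 11 to 133 for the difference, with 0 to 2, 1 to 2, 1, 0 and 0 to 1 members called. Plau was called between the lines without TGF-β when either EpRas library with TGF-β was left out (adjusted p = 0.0498 and 0.0489), and lost its call with TGF-β without the first or second EpH4 library with TGF-β (0.137 and 0.0952) or the first such EpRas library (0.0618). The difference between the TGF-β effects, which lay between -0.08 and 0.27 for Plaur and between -0.01 and 0.50 for F3, changed sign for F3 (-0.01) without the first untreated EpH4 library and for Plaur without the second untreated EpH4 (-0.03), the second untreated EpRas (-0.01) or the second EpRas library with TGF-β (-0.08).

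In the siRNA model, a pseudocount of 0.1 FPKM left 1 member called for the knockdown and 0 for TGF-β, and 5 FPKM left 0 for TGF-β. With pair 1 alone, 100 genes (193 with both) were called for the knockdown and 24 (227 with both) for TGF-β, with 1 and 0 members. With pair 2 alone limma called 0 and 6 genes, with 0 members in each, and the knockdown term had 1683 genes at an unadjusted p under 0.05. Past 2-fold, both pairs together gave 366 genes without and 347 with TGF-β, a pseudocount of 5 FPKM gave 200 and 173, pair 1 alone 718 and 810, and pair 2 alone 788 and 624. Members past 2-fold were 3 with pair 2 alone without TGF-β, and 2 with either pair alone with TGF-β. F3 was lower with pair 2 alone without TGF-β (-0.39). Depth limits Plat, Serpine2 and Serpinb2 most, with at most 49 reads in an untransfected library.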
